A study of Mus musculus with 2 samples.

Results

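Footprints of translating ribosomes were counted on the genes of heterotrimeric G protein subunits in the neonatal mouse brain. The genes were chosen by symbol from a list of 10: the alpha subunit genes Gnas, Gnal, Gnao1, Gnai1, Gnai2, Gnai3, Gnaq and Gna11, and the beta subunit genes Gnb1 and Gnb2. Of these, 9 were analysed, out of 45578 genes in the table, and they held 78 of its 109463 annotated transcripts. Gnai3 was not analysed here. The samples were brains of 2 control mice at postnatal day 5, biological replicates 1 and 2 of a single group (n = 2). Each animal had the genotype Smn+/-; SMN2tg/0 on the FVB strain, so both carried 1 disrupted copy of Smn and a human SMN2 transgene (the Taiwanese line, a spinal muscular atrophy model in which such animals serve as controls). No Smn wild-type animal was compared here. Fragments protected by ribosomes (25 to 35 nucleotides) were taken from pooled polysomal fractions of the whole brain, so the counts do not separate cell types.

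Heterotrimeric G proteins carry signals from cell-surface receptors to enzymes and channels inside the cell. An alpha subunit binds GDP or GTP, and a beta and a gamma subunit form a tight dimer. An activated receptor makes the alpha subunit exchange GDP for GTP, after which alpha and the beta-gamma dimer act on separate targets. Gs and its relative Golf stimulate adenylyl cyclase, Gi inhibits it, and Gq and G11 activate phospholipase C beta. Go is the abundant alpha subunit of neurons. In the brain these pathways carry the slow actions of dopamine, glutamate, GABA, opioids and many other transmitters.

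The libraries held 1866831 and 5261878 footprints in replicates 1 and 2. Levels are given as CPM, the footprints of a gene scaled to a library of 1000000. With a floor of 3 footprints, a gene at 0 could still lie as high as 1.61 CPM in replicate 1 or 0.570 CPM in replicate 2. Intervals and floors cover counting error only, and they treat every footprint as an independent molecule. PCR copies are not independent molecules, so the intervals can be too narrow. All 6 neuronal, 5 astrocyte, 5 oligodendrocyte, 4 microglial and 3 endothelial marker genes listed had footprints in both libraries. The liver gene Alb and the pituitary gene Prl were at 0 in both. The other pituitary genes listed had 15 and 0 (Gh), 8 and 9 (Pomc) and 1 and 5 footprints (Cga) in replicates 1 and 2. Summed pituitary markers thus stood at 12.9 and 2.66 CPM. Of the other liver genes, Apoa1 had 1 and 6 footprints and Serpina1a 0 and 2. Ttr, listed for liver and for choroid plexus, had 1087 and 1456. The summed level of neuronal markers was 4933 CPM in replicate 1 and 3880 CPM in replicate 2, and that of cerebellar markers 335 and 459 CPM. Fewer cells of a type and fewer footprints per cell cannot be told apart in whole brain.

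Levels of different genes are compared as coding density, which is the CPM of a gene, summed over its transcripts, per kilobase of coding sequence. The coding sequence is that of its most abundant coding transcript. Gnas encodes the stimulatory alpha subunit Gs, and 3761 and 10491 footprints fell on it in replicates 1 and 2. These were 2015 CPM (Clopper-Pearson 95% interval 1951 to 2080) and 1994 CPM (1956 to 2032). The replicates thus gave nearly the same level, and their intervals overlapped. Its coding density was 1691 ± 12.5 CPM per coding kilobase (SD, n = 2), at percentile 99.9 of the 13317 tested genes with a coding transcript. In raw CPM it ranked number 5 of all genes.

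Gnal encodes Golf, which takes the place of Gs in olfactory neurons and in much of the striatum. It had 260 and 637 footprints, or 139 CPM (123 to 157) and 121 CPM (112 to 131). Its coding density was 96.6 ± 9.56 CPM per coding kilobase, the lowest of the 9 genes. Gnas stood above Gnal by a factor of 16.4 in replicate 1 and 18.7 in replicate 2 on this scale. The ratio of their means was 11.7 with coding length weighted by count and 3.35 when only the highest transcript of each gene was counted. The latter uses 1 of 24 annotated transcripts for Gnas and 1 of 2 for Gnal, so it leaves out unlike parts of their counts. Of 6 striatal marker genes, all had footprints, at a summed level of 246 CPM in replicate 1 and 214 CPM in replicate 2.

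The inhibitory and Go genes covered a wider range. Gnao1, which encodes Go, had 1723 and 4264 footprints, or 923 and 810 CPM, and a coding density of 814 ± 74.8 CPM per coding kilobase. Gnai2 had 616 and 1696 footprints, or 330 and 322 CPM, at 305 ± 5.07 CPM per coding kilobase. Gnai1 had 304 and 621 footprints, or 163 and 118 CPM, at 132 ± 29.8 CPM per coding kilobase. The replicates lay close together for Gnai2, whereas the Gnai1 level was higher in replicate 1 and its counting intervals did not overlap (145 to 182 against 109 to 128 CPM). Go stood above Gi2 by a mean factor of 2.66 ± 0.201 (SD, n = 2), and Gi2 above Gi1 by 2.37 ± 0.497.

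The genes of the Gq class were less dense. Gnaq had 433 and 1054 footprints, or 232 and 200 CPM, at 200.1 ± 20.7 CPM per coding kilobase. Gna11, whose product has much the same targets, had 230 and 579 footprints, or 123 and 110 CPM, at 108 ± 8.62. The ratio of Gnaq to Gna11 in coding density was 1.88 in replicate 1 and 1.82 in replicate 2, so it was reproduced closely.

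Gnb1 and Gnb2 encode beta subunits, the propeller-shaped members of the signalling dimer. Gnb1 had 1811 and 5044 footprints, or 970 and 959 CPM, and a coding density of 943 ± 7.95 CPM per coding kilobase. Gnb2 had 1508 and 4472 footprints, or 808 and 850 CPM, at 810.2 ± 29.1. Gnb1 lay between Gnas and Gnao1, Gnb2 lay level with Gnao1, and both stood above all other alpha genes measured.

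**Figure D1:**
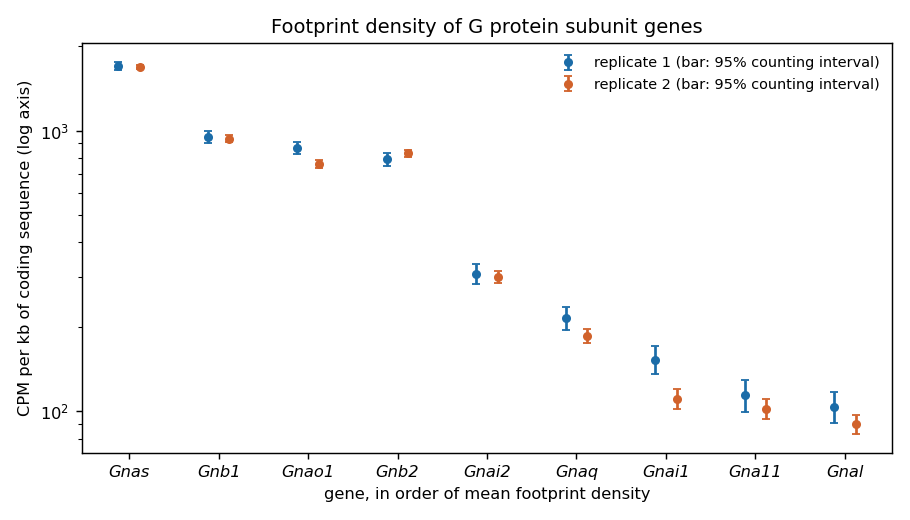
Coding density (CPM per kilobase of coding sequence, log axis) of the 9 genes, in order of their mean, with 1 point per replicate and bars for the 95% counting interval. Gnas lies highest at 1691, Gnb1, Gnao1 and Gnb2 lie between 810.2 and 943, and the other 5 lie between 96.6 and 305.

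In order of mean coding density the genes were Gnas, Gnb1, Gnao1, Gnb2, Gnai2, Gnaq, Gnai1, Gna11 and Gnal. The ranges of the replicates did not overlap between Gnas and Gnb1, a step of 1.79-fold, or between Gnb2 and Gnai2, a step of 2.65-fold. They also did not overlap at the smaller steps from Gnb1 to Gnao1, from Gnai2 to Gnaq and from Gnaq to Gnai1. The ranges did overlap between Gnao1 and Gnb2, between Gnai1 and Gna11 and between Gna11 and Gnal, so these neighbours did not differ beyond their spread. With 2 values a gene, an exact permutation test cannot go below p = 0.333, so no test is given. With coding length weighted by count over the coding transcripts of a gene, Gnas stood at 1205 CPM per coding kilobase. That was 1.19-fold above Gnb1 and 1.27-fold above Gnao1, and Gnb2 then stood 2.49-fold above Gnai2. With whole transcript length in place of coding length, Gnb2 ranked first at 528 and Gnas second at 514 CPM per kilobase of transcript. The most abundant Gnas coding transcript has a 5′ leader of 2362 nucleotides, which counts in the scale of whole length. That of Gnb2 is annotated with 1569 nucleotides and a 3′ part of 0, beside 3131 nucleotides for that of Gnb1. Gnb1 stood 1.16-fold above Gnb2 per coding kilobase and at a ratio of 0.583 per whole length. When only the highest transcript of each gene was counted, Gnas stood 1.01-fold above Gnao1 and 1.09-fold above Gnb1, Gnb2 stood 1.02-fold above Gnai2, and Gnai2 fell below Gnai1 at a ratio of 0.611. The annotation holds 24 transcripts for Gnas, 15 for Gnb2, 11 for Gnao1, 10 for Gnai2, 9 for Gnb1 and 1 for Gnai1. A single transcript therefore leaves out unlike parts of their counts, and these ratios are not comparisons of gene level.

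The whole family was set beside these genes, with 15 alpha, 5 beta and 12 gamma genes measured. Gnas took 47.4% ± 1.78 (SD, n = 2) of the summed coding density of alpha genes, Gnao1 22.8% ± 1.07, Gnai2 8.56% ± 0.242 and Gnaq 5.83% in replicate 1 and 5.37% in replicate 2. The Gnas value counts footprints on all 24 of its transcripts but divides them by a coding length of 1185 nucleotides. Transcripts with the coding length of Gs held 36.5% of these footprints. How fragments shared by transcripts were counted is not given, so 36.5% was not shown to be the part of Gs. Shares with weighted coding length were not computed. Gnaz, a Gi relative that pertussis toxin does not modify, took 4.15% ± 0.382 at 148 ± 7.01 CPM per coding kilobase, between Gnaq and Gnai1. Gna13 and Gna12 had densities of 48.7 ± 7.96 and 22.6 ± 0.0833. The transducin genes of photoreceptors were at the edge of detection, with 2 and 3 footprints on Gnat1 and 0 and 1 on Gnat2. Gnat3, the gustducin gene of taste cells, had none in either library. Gna14 had 0 and 8 footprints and Gna15 had 1 and 10.

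Among beta genes, Gnb1 took 47.1% ± 1.22 and Gnb2 40.5% ± 0.748 of the summed coding density. Gnb4 took 8.77% ± 1.16 at 176 ± 26.3 CPM per coding kilobase. Gnb5, whose product pairs with RGS proteins rather than with most gamma subunits, took 3.41% ± 0.671 at 68.0 ± 12.2. Gnb3, known from cone photoreceptors, had 8 and 20 footprints. Among gamma genes Gng2 led with 44.3% ± 0.530, followed by the neuronal gene Gng3 with 21.3% ± 2.67. Their coding densities were 1829 ± 296 and 888 ± 263 CPM per coding kilobase.

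**Figure D2:**
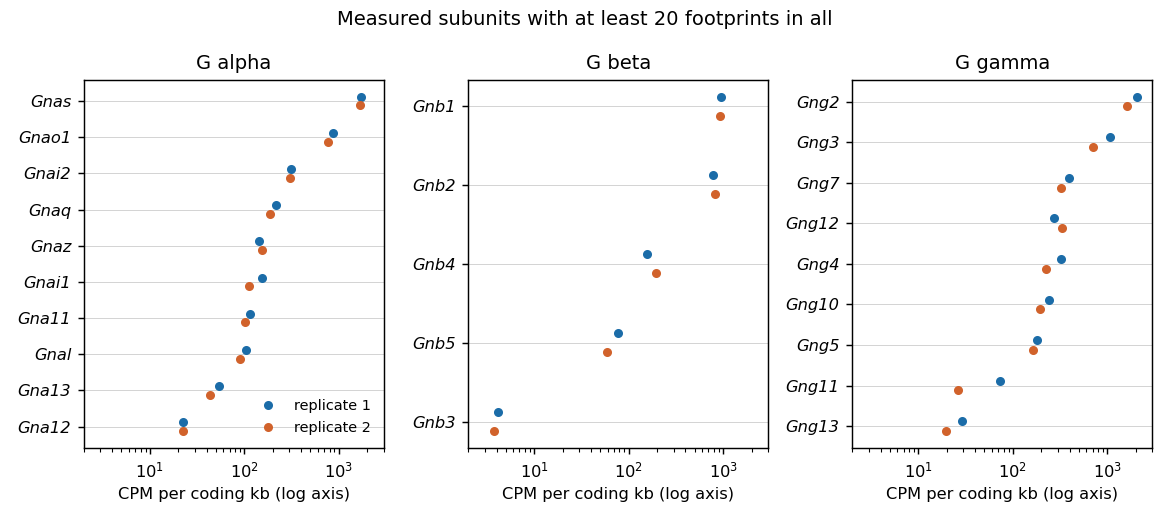
Coding density (CPM per coding kilobase, log axis) of alpha, beta and gamma subunit genes with at least 20 footprints in all, with 1 point per replicate. Gnas, Gnb1 and Gng2 head their classes, at mean densities of 1691, 943 and 1829.

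Summed coding density was 3569 ± 160 for alpha genes, 2001 ± 34.9 for beta genes and 4132 ± 718 for gamma genes (SD, n = 2). The ratio of alpha to beta was 1.86 in replicate 1 and 1.71 in replicate 2, with a mean of 1.79 ± 0.111. It was 1.91 ± 0.115 over the 9 genes alone and 1.24 with whole transcript length. With coding length weighted by count, Gnas alone stood at 1205, Gnb1 at 1009 and Gnb2 at 935, and the ratio of alpha to beta was not computed on that scale. The ratio of gamma to beta was 2.35 in replicate 1 and 1.79 in replicate 2. Gamma coding sequences are short, at 216 nucleotides for Gng2, so fragments near their ends weigh more in a density than they do for alpha and beta genes. The alpha sum does not include Gnai3, and without matched RNA these are footprint densities and not translational efficiencies.

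Gnas is a complex imprinted locus in which alternative first exons join a common set of downstream exons. Besides Gs it is known to encode XLαs, a long form of the same subunit, the unrelated protein ALEX from an overlapping frame of the XL exon, and the neuroendocrine secretory protein NESP55. RefSeq gives 4 start windows for the gene (GRCm38.p6, chromosome 2, plus strand). The first lies far upstream of the others, a pair of overlapping windows follows, and the fourth lies a short way further downstream. Which start belongs to which transcript below was not examined. Bases from upstream of the first start and of the overlapping pair are shown because these windows share a run of letters. The stretches are chr2:174284263-174284319 and chr2:174327638-174327697, and capitals mark the longest run that they share. The fourth window holds neither this run nor the 6 letters TTTATA within it.

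First start: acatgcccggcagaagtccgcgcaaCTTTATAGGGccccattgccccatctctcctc

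Overlapping pair: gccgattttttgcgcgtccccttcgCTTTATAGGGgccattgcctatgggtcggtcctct

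The shared run, CTTTATAGGG, has 10 letters. On the gene's strand it occurred in 5 of 32544 distinct RefSeq start windows of this length (0.0154%), of which 3 were the Gnas windows it was taken from, and on either strand in 8 (0.0246%). TTTATA begins at base -31 from the first start and at -85 or -104 from the starts of the overlapping pair. TTTATA was present on either strand in 13.6% of all windows. It was in none of the windows of Gnb1, Gnb2, Gnao1, Gnai1, Gna11 and Gnaq. A match is a description of letters and not of a site in use.

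The 24 annotated Gnas transcripts comprised 16 coding and 8 other transcripts, and all had footprints in both libraries. Within the gene, 4 transcripts with coding sequences of 379 to 394 codons, the length of Gsα, took 38.2% of the footprints in replicate 1 (95% interval 36.6 to 39.7). In replicate 2 they took 34.8% (33.9 to 35.7). These intervals did not overlap. Gnas-002 led with 456 and 1093 footprints, or 11.3% ± 1.21 of the gene. Gnas-201, Gnas-014 and Gnas-017 took 8.73% ± 0.131, 8.27% ± 0.640 and 8.21% ± 0.643. Gnas-002 and Gnas-201 have the same coding length of 1185 nucleotides, but the 5′ leader of Gnas-002 has 2362 nucleotides and that of Gnas-201 has 207. The longer transcript had more footprints by a factor of 1.40 (95% interval 1.21 to 1.62) in replicate 1 and 1.18 (1.08 to 1.29) in replicate 2.

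The 3 transcripts with 1119 or 1133 codons, the length of XLαs, took 15.7% (14.5 to 16.9) and 17.3% (16.6 to 18.04) of Gnas footprints. The 2 with 725 codons, the length of ALEX, took 10.6% (9.64 to 11.6) and 11.5% (10.9 to 12.1). Gnas-004 and Gnas-019 are both 3519 nucleotides long, the former annotated with the XLαs frame and the latter with the ALEX frame. Their counts were 196 and 203 in replicate 1 and 605 and 611 in replicate 2, ratios of 0.966 (0.789 to 1.18) and 0.990 (0.883 to 1.11). Gnas-203 and Gnas-204, both of 3729 nucleotides, likewise had ratios of 1.06 (0.864 to 1.29) and 1.08 (0.965 to 1.21). Counts per transcript thus did not separate the XLαs frame from the ALEX frame. How fragments shared by both transcripts of a pair were counted is not given, so these ratios do not show equal use of the frames.

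Among transcripts of 253 codons the counts differed widely. Gnas-007, Gnas-202 and Gnas-008 all have 253 codons and a 5′ leader of 259 nucleotides, and by length alone they are candidates for NESP55. Their 3′ parts have 1444, 624 and 1038 nucleotides. Gnas-007 had 215 and 643 footprints, Gnas-202 had 38 and 113, and Gnas-008 had 14 and 37. Gnas-007 stood above Gnas-008 by a factor of 15.4 (8.96 to 28.6) in replicate 1 and 17.4 (12.5 to 24.9) in replicate 2, although both carry the same coding and leader lengths.

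Pairs of long forms with the same coding and leader length, Gnas-203 with Gnas-004 and Gnas-019 with Gnas-204, had ratios between 1.03 and 1.06 in the replicates. Gnas-006 has a coding sequence of 876 codons and the same 5′ leader length as Gnas-004, with a different end. It had 5 and 18 footprints, the lowest count of the 24 transcripts and 0.152% ± 0.0273 of the gene, against 196 and 605 for Gnas-004. The ratios were 39.2 (16.5 to 122) and 33.6 (21.1 to 57.1). The table does not give exon structures, so which bases these transcripts share was not examined. Most footprints on a transcript of the NESP55 or XLαs kind were therefore not shown to come from its own first exon or reading frame. For the same reason, the share on transcripts of Gsα length was not shown to be the part of Gsα in the gene.

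Of the other Gnas transcripts, Gnas-001 (5.67% ± 0.00576 of the gene) and Gnas-005 (5.33% ± 0.437) are annotated as processed transcripts without a coding sequence. The short coding fragments Gnas-009 and Gnas-018 took 3.44% ± 0.125 and 3.32% ± 0.609, and the processed transcripts Gnas-016 and Gnas-015 took 2.51% ± 0.207 and 2.30% ± 0.242. Gnas-019, Gnas-004, Gnas-204 and Gnas-020 lay between 5.18% and 5.61%, and Gnas-203 took 5.81% ± 0.429 and Gnas-007 5.92% ± 0.292. Nespas, the antisense RNA of the locus, had no footprint on any of its 3 transcripts in either library. Whether the counting used strand is not given in the sources used here.

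**Figure D3:**
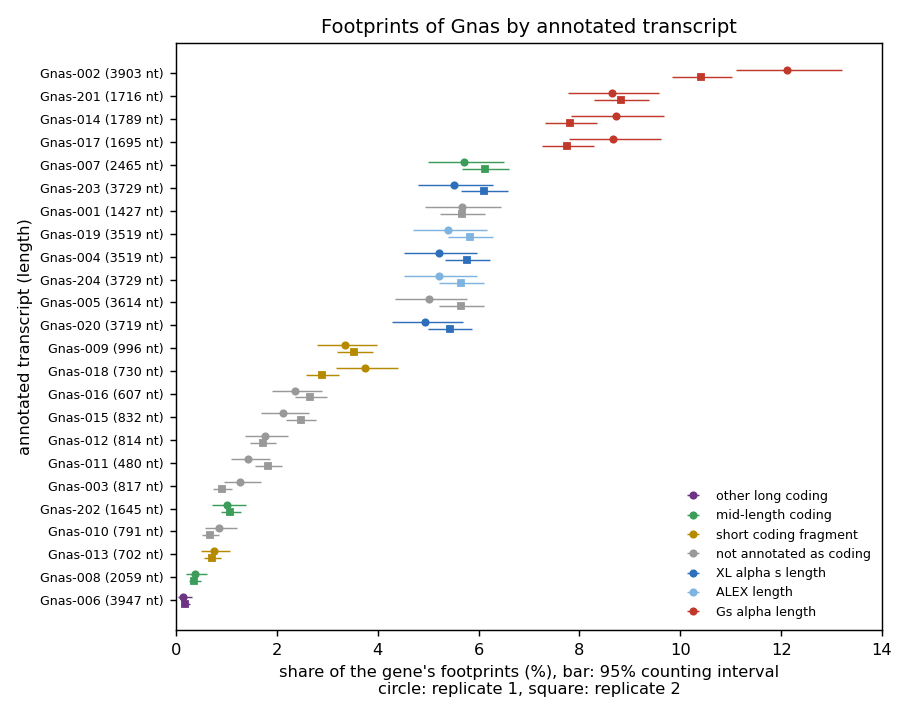
Share of Gnas footprints (%) on each of the 24 annotated transcripts, with circles for replicate 1, squares for replicate 2 and bars for the 95% counting interval. Colours give classes by annotated coding length. The 4 transcripts of Gsα length lead, and Gnas-006 and Gnas-008 lie lowest at mean shares of 0.152% and 0.362%.

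The other genes had simpler annotations. Gnai1 had 1 transcript. Gnal had 2, of which Gnal-201 (448 codons) had 158 and 362 footprints and Gnal-202 (381 codons) had 102 and 275, or 58.8% ± 2.79 and 41.2% ± 2.79 of the gene. Gnao1-001 and Gnao1-002 share a coding length of 1065 nucleotides and differ in their 3′ parts. They had 402 and 400 footprints in replicate 1 and 978 and 953 in replicate 2, so they were equal within counting error. In Gnai2 the transcripts Gnai2-001 and Gnai2-003, both of 355 codons, took 26.3% ± 2.23 and 24.9% ± 1.63.

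Gnb1 footprints fell on 9 transcripts, with Gnb1-001, Gnb1-201, Gnb1-004 and Gnb1-008 at 18.5% ± 0.632, 17.8% ± 0.604, 17.8% ± 1.25 and 13.7% ± 2.15. All 4 have a coding length of 1023 nucleotides. Gnb2 footprints fell on 15 transcripts, of which Gnb2-004 was the highest at 10.2% ± 0.115. Gnaq-001 took 68.4% ± 1.89 of Gnaq footprints and Gna11-001 took 71.6% ± 2.62 of Gna11 footprints. The remainder of both lay on 2 transcripts each without a coding sequence.

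A transcript's share of its gene was compared between the libraries with Fisher's exact test, two-sided, adjusted by Benjamini-Hochberg over 37357 transcripts of all genes. The test called 25 transcripts (0.0669%), and 1 of the 77 transcripts tested here was among them. It was Gnao1-004, a retained-intron transcript of 935 nucleotides on which 234 and 378 footprints fell. Its share of Gnao1 was 13.6% in replicate 1 and 8.86% in replicate 2 (adjusted p of the exact test 0.000879). No Gnas transcript was called (lowest adjusted p of the exact test 0.541), and 2 of the 24 had an unadjusted p under 0.05. Grouped by annotated coding length, the Gnas class of Gsα length did differ, at 38.2% and 34.8% of the gene (adjusted p of Fisher's exact test over the classes 0.00184). No other class had an adjusted p under 0.05 in that test.

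For each gene, the share of its footprints that came from replicate 2 was tested against the share of TMM-scaled library sizes by an exact binomial test, two-sided (TMM is the trimmed mean of M values). The test compares 2 libraries and not conditions. It called 2861 of 16427 genes (17.4%) at an adjusted p under 0.05, with 11.5% of genes called lower and 5.95% called higher in replicate 2. Of the 9 genes here, 6 were called, and all 6 were lower in replicate 2. Gnai1 had the largest difference, a log2 ratio of replicate 2 over replicate 1 of -0.59 (adjusted p of the exact test 3.46e-07). Gnaq followed at -0.34 (0.000746), Gnal at -0.33 (0.0183) and Gnao1 at -0.31 (4.01e-12). Gnas and Gnb1 were called at -0.14 each (7.72e-06 and 0.00348). Gna11 at -0.29, Gnai2 at -0.16 and Gnb2 at -0.05 were not called, with adjusted p of the exact test of 0.0604, 0.0897 and 0.469.

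TMM scaling lowered the log2 ratio of the median gene from 0.13 to 0.01, so these values are relative to that shift. On library totals, where 19% of genes were called and 7.47% were called lower, 2 of the 9 genes were called, Gnao1 at -0.19 and Gnai1 at -0.46. Gnas and Gnb1 were then at -0.02 each and not called, and Gnb2 was at 0.07. The exact test of edgeR with a dispersion estimated from the same libraries called 11 genes (0.067%), none of the 9 among them, and none of the 9 had an unadjusted p under 0.05 in it. That dispersion already holds the difference between the 2 libraries under test. The test could therefore call few genes, and it does not decide whether the 9 differ.

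Footprint density moved with these differences over all genes. In the 10% of tested coding genes with the highest coding density, 57.8% were called and the median log2 ratio was -0.26. Gnas, Gnb1, Gnao1, Gnb2, Gnai2 and Gnaq belong to that 10%. In the next 10%, which holds Gnai1, Gna11 and Gnal, 35.8% were called and the median was -0.10. Among genes of like density, the log2 ratio of Gnas lay at percentile 63.1, that of Gnb2 at 71.2 and that of Gnaq at 41.6. Gnai1 lay lowest at percentile 7.73. The share called here, 6 of 9, is thus to be read against the dense genes and not against 17.4%. The part of density in these differences was not tested. All 6 neuronal markers also had log2 ratios below 0, from -0.99 for Tubb3 to -0.05 for Rbfox3, and 4 of the 6 had a lower CPM in replicate 2. Other classes moved too: 4 of 5 astrocyte, 4 of 5 red cell and 3 of 4 choroid plexus markers had log2 ratios below 0. The summed levels in replicates 1 and 2 were 2484 and 1702 CPM for red cells and 626 and 329 CPM for choroid plexus. Ttr alone held 582 and 277 CPM of the choroid plexus sum. Folr1 was higher in replicate 2, at 24.1 and 34.8 CPM. Kl (8.04 and 7.22 CPM) and Aqp1 (11.2 and 10.3 CPM) were slightly lower. The part of cell content was not tested.

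The other genes of the pathway were taken from lists of 134 genes, of which 132 were measured and 113 tested. The test called 20 of the 113 (17.7%), close to the 17.4% of all genes, with 17 lower and 3 higher in replicate 2. Their median log2 ratio was -0.07, beside 0.01 for all genes tested. On library totals 24 were called, 12 lower and 12 higher in replicate 2, so the excess of lower calls depended on the scaling. Among gamma genes 5 of 9 tested were called, all lower in replicate 2, and the median was -0.46. On library totals 4 were called, all but Gng7. Gng3 had 457 and 842 footprints and a log2 ratio of -0.74, Gng2 had 822 and 1841 and -0.46, and Gng4 had 139 and 267 and -0.67. Gng7 (-0.39) and Gng11 (-1.49, with 30 and 31 footprints) were also called. Of the 9, 7 lie in the densest 10% of genes, where 51.5% of genes were called lower.

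Of 3 tested other alpha genes, Gna13 was called at -0.46, and Gnaz was not (-0.03). Of 4 tested genes in the list of other beta genes, which also holds the beta-like gene Gnb1l, Gnb5 was called at -0.49. Gnb4 was at 0.18 and not called. On library totals Gna13 was not called, and Gnb4 was called at 0.31.

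Effector genes were mixed. Adenylyl cyclases, which make cyclic AMP, had 2 of 9 called. Adcy5, the main cyclase of the striatum, had 188 and 337 footprints, or 101 and 64.0 CPM, and a log2 ratio of -0.77 (adjusted p of the exact test 2.58e-07). Its coding density was 21.7 ± 6.84 CPM per coding kilobase. Adcy1, a calmodulin-stimulated cyclase, had 349 and 883 footprints and a log2 ratio of -0.28, a call that library totals did not give, at 52.8 ± 4.03 CPM per coding kilobase. The summed striatal markers were 246 CPM in replicate 1 and 214 CPM in replicate 2. The part of striatal tissue in the Adcy5 and Gnal values was not tested.

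Protein kinase A is the main target of cyclic AMP, and 4 of its 6 subunit genes were called, all lower in replicate 2. They were the regulatory subunit genes Prkar1a (-0.43), Prkar1b (-0.25) and Prkar2b (-0.29) and the catalytic subunit gene Prkaca (-0.42). Of the 6, 5 lie in the densest 10% of genes, where 51.5% were called lower, and on library totals Prkar1a and Prkaca alone were called. Prkar1a and Prkar1b led the list at 493 ± 73.4 and 463 ± 28.9 CPM per coding kilobase. None of 4 phospholipase C beta genes was called, although library totals called Plcb1 (0.34) and Plcb4 (0.50). These, at 59.0 ± 9.88 and 19.8 ± 4.82 CPM per coding kilobase, had the highest counts. None of the 3 tested GIRK channel genes, which beta-gamma dimers open, was called, although library totals called Kcnj3 (0.66). Kcnj6 stood at 32.0 ± 3.14 and Kcnj3 at 25.8 ± 8.31 CPM per coding kilobase.

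Regulators of the cycle included 15 tested RGS genes, whose products speed GTP hydrolysis. Rgs10 alone among them was called, at 0.60 with 50 and 235 footprints, and library totals called Rgs14 too. Rgs4 and Rgs7 had the highest counts of the list, and Rgs7 is a partner of Gnb5. They stood at 161 ± 11.7 and 50.3 ± 8.39 CPM per coding kilobase. Of 4 tested genes of alpha-subunit chaperones and GoLoco proteins, Pcp2 was called, at 1.65 with 24 and 238 footprints. Pcp2 is a Purkinje cell gene, and the summed cerebellar markers, Pcp2 included, were 335 CPM in replicate 1 and 459 CPM in replicate 2; their part was not tested. Library totals called Gpsm1 too, at 0.30. Gpsm1 and Ric8b, the chaperone of Gs and Golf, stood at 114 ± 16.5 and 26.2 ± 1.24 CPM per coding kilobase. None of 6 tested receptor kinase and arrestin genes was called, with Arrb1 at 114 ± 5.97 and Adrbk1 at 67.1 ± 5.98.

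Receptors are the genes that activate these subunits. Gabbr1, a subunit of the GABA-B receptor that couples to Gi and Go, stood at 224 ± 18.0 CPM per coding kilobase, with a log2 ratio of -0.29. Its partner Gabbr2 was called at -0.50, Grm3 at -0.35 and Oprl1 at 0.31, which made 4 of 22 tested genes of this class. Library totals called these and Cnr1. Of 14 tested receptors coupled to Gs or Golf, Htr6 was called, at -1.31 with 19 and 22 footprints. Adcyap1r1, the PACAP receptor, led that class at 203 ± 16.5 CPM per coding kilobase, and Gpr12 followed in count at 36.8 ± 9.78. None of 14 tested receptors coupled to Gq was called, although library totals called Grm5 (0.26) and Htr2c. Ednrb stood at 189 ± 6.35 and Grm5 at 71.1 ± 8.90 CPM per coding kilobase.

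**Figure D4:**
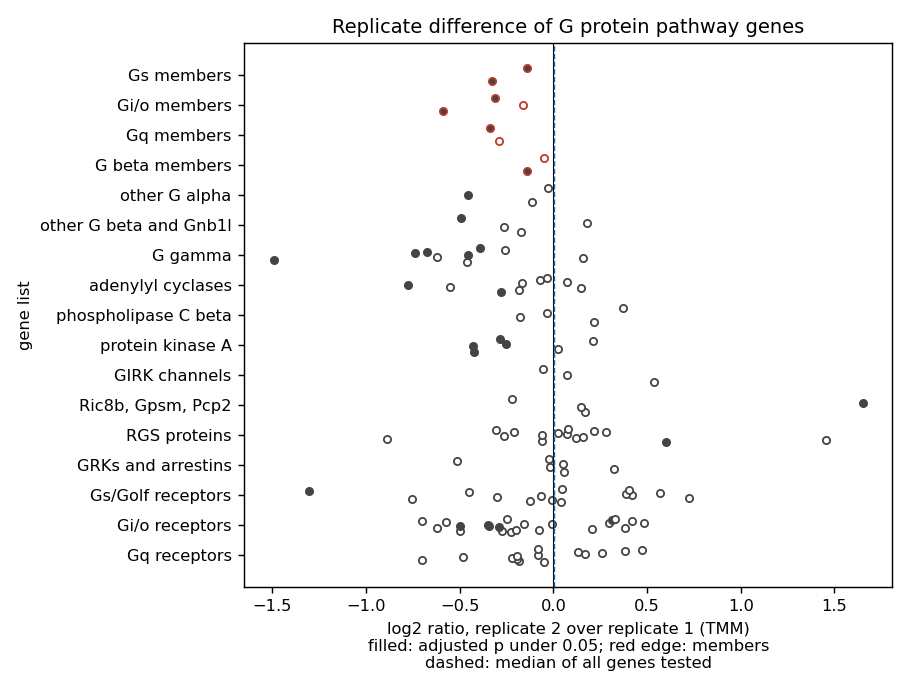
Log2 ratio of replicate 2 over replicate 1 (TMM scaling) for each tested gene of the pathway lists, 1 point per gene. Filled points were called by the exact binomial test, red edges mark the 9 subunit genes, and the dashed line is the median of all genes tested, 0.01. All 9 lie below 0, from -0.59 to -0.05; on library totals Gnb2 lies above it at 0.07.

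The annotation and density of the 9 genes, which were picked with results of these data known, are set beside those of other genes as a description. The coding length of the reference transcript ran from 1023 to 1347 nucleotides with a median of 1068, beside a median of 1392 over the 13317 tested coding genes. The median 5′ leader had 300 nucleotides, beside 174, and the median 3′ part 1808, beside 962. A median of 9 transcripts were annotated per gene, beside 4, and a median of 78.8% of footprints fell on coding transcripts, beside 91.1%. Gnao1 had the lowest such share, 60.2%, and Gnai1 and Gnal had 100%. Median coding density was 305 CPM per coding kilobase, beside 23.9 over all of these genes.

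Among the genes nearest to Gnas in log2 CPM over the 2 samples were Eef1a1 (distance 0.323), Apoe (0.327) and Hspa8 (0.342). These had lower levels in replicate 2 than in replicate 1, as did Gnas by a smaller margin. With 2 samples of 1 group, this likeness is one of level alone.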

How the data were processed

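Ribosome-protected fragments from pooled polysomes of 2 brains were sequenced, and the deposited values are raw counts of fragments per annotated transcript, without normalization by the authors as far as the values show. The submitters' processing notes name Trimmomatic 0.36, Bowtie2 2.2.6, SAMtools and the build GRCm38.p4. The counting rule, strand and treatment of fragments shared by transcripts are not given in the sources used here.

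Transcript counts were summed per gene. Among 40 pairs of coding transcripts of the same gene and length, the mean squared difference over the sum was 1.01, near the 1 that counting noise gives. CPM used library totals (1866831 and 5261878), and coding density divided CPM by the coding length of the most abundant coding transcript. The 16427 genes that averaged 10 or more counts were compared between libraries with an exact binomial test on TMM-scaled totals (edgeR 4.0.16, R 4.3.3), with Benjamini-Hochberg adjustment and a threshold of 0.05. The labels call the samples biological replicates, and these tests measure differences between 2 libraries of 1 group. The scripts were tested on simulated data.

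Alternatives were library totals, DESeq2 1.42.0 size factors, filters on low counts, single or coding transcripts, transcript length, the edgeR exact test and each replicate alone. The members and gene lists were chosen with earlier results of these data known. Of each pathway list the text names the 2 genes with the highest mean CPM and up to 3 called genes that average 100 or more counts. For Gnas it names transcripts with at least 2% of the gene, and for the other genes the highest transcript and coding transcripts with at least 10%. Other genes and transcripts were named after their values were seen. One of the genes nearest to Gnas and single values of the striatal markers are not reported here.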

Additional observations from a re-analysis of the deposited data

How the results depend on the processing

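The 9 genes summed to a coding density of 5100 CPM per coding kilobase. The sum was 3901 over coding transcripts alone, 1120 over each gene's highest transcript alone and 1931 per kilobase of whole transcript. Genes called between the libraries numbered 2861, against 1444 on the highest transcript alone and 11 with the edgeR exact test. Of the 9 genes, 6 were called, against 2 on library totals and 0 with the edgeR exact test. The highest transcript alone left 4 (Gnas, Gnao1, Gnaq and Gnai1), and a mean count of at least 100 gave 7, with Gna11 added. At an unadjusted p under 0.05 the exact binomial test had 8 of the 9 and the edgeR exact test 0. The edgeR exact test took its dispersion from the same 2 libraries that it compared, so it could call few genes. Calls higher in replicate 2 were 34.2% of all calls, 60.7% on library totals and 17.6% on the highest transcript alone. The log2 ratio of Gnb2 was -0.0529, but 0.0733 on library totals and 0.0430 on its highest transcript. The Gsα-length share of Gnas was 36.5%, 46.2% of coding transcripts alone and 30.4% per nucleotide. Transcripts called numbered 25, and 7 among coding transcripts alone. The ratio of alpha to beta density was 1.79, 1.24 per whole transcript length and 1.91 over the 9 genes alone. The causes were not tested. Of 45 alternative level values of the 9 genes, 13 moved by less than the spread between replicates and 32 by more. Some of the 13 could not move, because Gnai1 has 1 transcript, Gnaq and Gna11 each have 1 coding transcript, and all Gnal transcripts are coding. Values per whole transcript length are in another unit and had to fall. These counts are therefore not a measure of robustness. Leaving out either of 2 replicates cannot move a mean beyond their SD, so those 18 values are not counted. Of 54 alternative log2 ratios, 39 kept direction and side of the threshold, 12 lost it, 1 gained it and 2 reversed. Changing the filter on low counts or using the edgeR exact test keeps the log2 ratio itself. Under those settings only the side of the threshold could change, so their kept direction carries no information. The per-list counts on library totals and the level ratios of gene pairs were added after seeing the data. No paired analysis was possible because both samples belong to 1 group. Precision is limited by 2 libraries and by counting error in the shallower one.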
